A study of Mus musculus with 14 samples.

Results

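Most of the 33 genes described here encode enzymes that activate fatty acids, carry them into mitochondria or oxidise them there or in peroxisomes. Some make or use ketone bodies. The list also holds Acot2, which releases the acid again, Mlycd, which removes an inhibitor of entry, Ivd of leucine breakdown and Pex11a of peroxisome division. All 33 were chosen by name, by a rule that uses no measured value though earlier results of these data were known. These genes make up 33 of the 19096 gene symbols that the array's accessions name. They have 42 probes on the array, and each gene is given by the probe with the highest mean signal. RNA from whole colon of female C57BL/6 mice of 4 to 6 months on chow was labelled with Cy3 and hybridised to 14 Agilent mouse arrays, 1 mouse to an array. All mice carried a glucocorticoid receptor gene (GR, Nr3c1) with loxP sites around part of it. Flox mice carried no Cre. GR iKO mice also carried Villin-cre, which is active in the intestinal epithelium, so the receptor gene was deleted in that cell layer and kept in the other cells of the colon wall. The mice of each genotype drank either regular water (4 Flox and 4 GR iKO arrays) or water with 2.5% dextran sodium sulfate (DSS, a polymer that injures the colon epithelium and causes colitis) for 7 days (3 Flox and 3 GR iKO arrays). The design asks how these genes differed with DSS in each genotype, how they differed between the genotypes on water and on DSS, and whether the DSS change depended on the genotype.

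Fatty acids are first joined to coenzyme A, long chains then pass into mitochondria as carnitine esters, and each turn of beta-oxidation runs through a dehydrogenase, a hydratase, another dehydrogenase and a thiolase. Electrons leave through an electron transfer flavoprotein, and peroxisomes handle very long and branched chains. Cells of the colon surface are known for drawing much of their energy from butyrate made by bacteria, which they oxidise by the same pathway and can turn into ketone bodies.

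The 75th percentile of processed intensity ran from 261.9 to 1003 across the arrays, lowest on replicate 4 of Flox DSS, and 62.6% to 71.3% of probes lay well above background. Each level below is the log2 processed intensity minus the log2 75th percentile of that array. All 33 genes were well above background on all 14 arrays. The Nr3c1 probe with the highest signal read, on water, 1.19 ± 0.14 for Flox and 0.39 ± 0.16 for GR iKO (SD, n = 4 each), or 57.3% of the Flox level (exact permutation test, two-sided, p = 0.0286, the smallest it can give). On DSS it read 1.27 ± 0.20 and 0.43 ± 0.05 (n = 3 each), or 56.1% (exact permutation p = 0.1, again the smallest possible). The other probes of Nr3c1 read 54.2%, 55.7% and 47.6% of Flox on water (exact permutation p = 0.0286, 0.143 and 0.0286). On DSS those probes read 57.1%, 55.2% and 75.7% (exact permutation p = 0.1, 0.1 and 0.5). All 10 epithelium markers and all 10 absorptive colonocyte markers were well above background on every array. Each slide held at most 1 array of a group, always in the same place, so the place on the slide and the group cannot be told apart. P-values set a difference against the spread between these mice. The spread of the 33 genes was larger on DSS: their median SD on water was 0.09 for Flox and 0.10 for GR iKO, and on DSS 0.19 and 0.39.

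With DSS, more of these genes were called lower than higher in both genotypes. The largest falls were those of Acsm3, which activates medium-chain acids, Ehhadh, which serves peroxisomal oxidation, and Slc27a2, which activates very long chains. In Flox mice, 15 of the 33 were called lower and 3 higher (adjusted p under 0.05, limma), where 25.4% of all 29520 tested probes were called lower and 21.8% higher. In GR iKO mice, 18 were called lower and 1 higher, where 19.8% of all probes were called lower and 19.1% higher. The share called in either direction, 54.5% in Flox and 57.6% in GR iKO, was nearer to that of all probes (47.3% and 38.9%) than the share called lower (45.5% and 54.5%). The median log2 difference of the 33 genes was -0.41 in Flox and -0.54 in GR iKO, against -0.09 and -0.02 over all tested probes. The mean level over the 33 genes ran from 2.79 to 2.86 on the Flox water arrays and from 2.14 to 2.47 on the Flox DSS arrays. It ran from 2.75 to 2.96 on the GR iKO water arrays and from 2.03 to 2.56 on the GR iKO DSS arrays, so the DSS arrays lay below the water arrays in both genotypes.

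**Figure D1:**
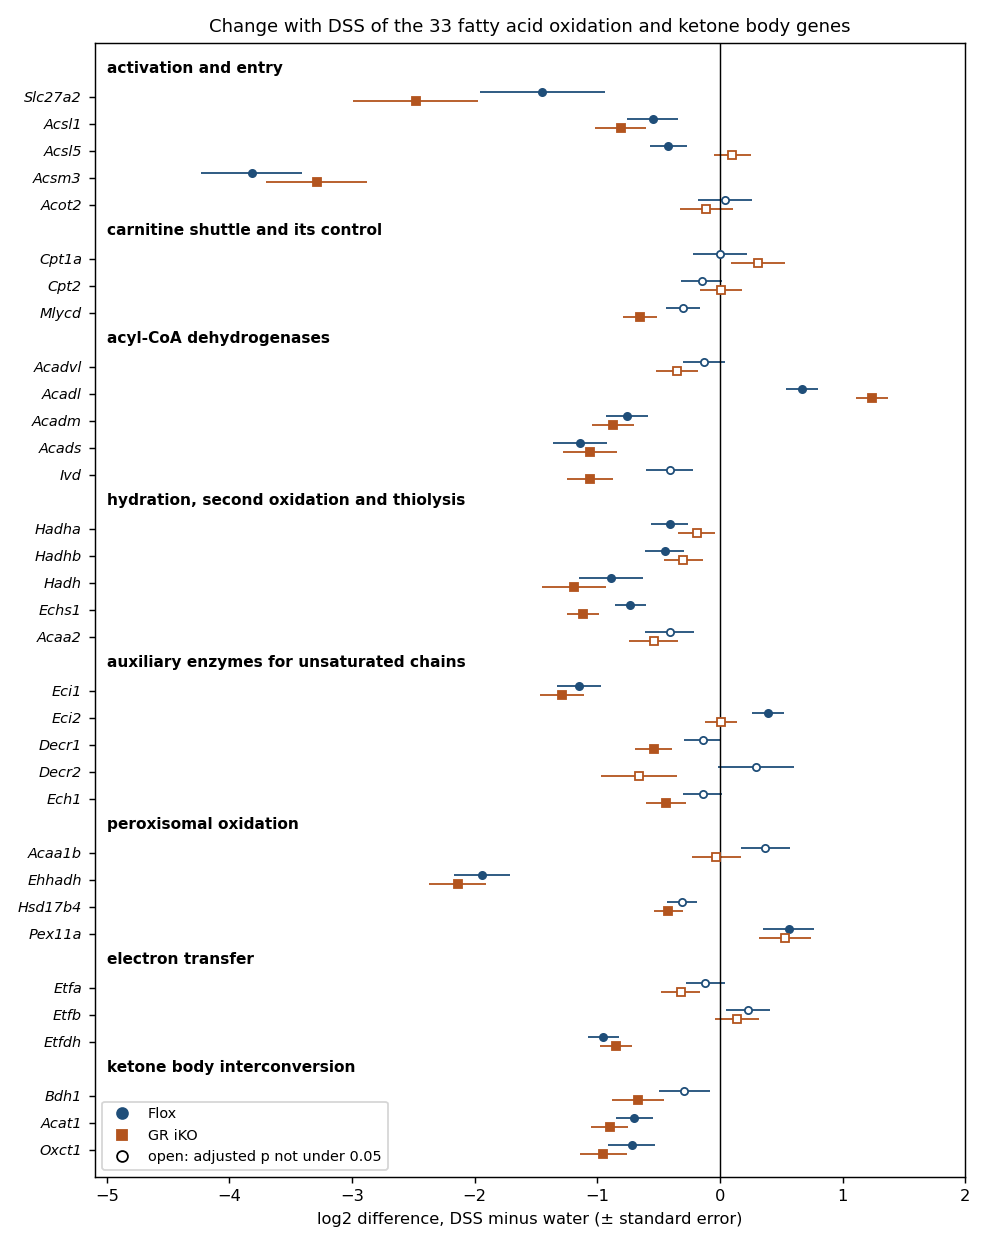
Log2 difference, DSS minus water, with its standard error, for each of the 33 genes ordered by role, in Flox mice (blue circles) and GR iKO mice (orange squares). Filled points have an adjusted p under 0.05. Acsm3, Ehhadh and Slc27a2 lie farthest to the left in both genotypes, and Acadl is the gene with a filled point to the right of 0 in both.

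The 12 genes called lower in both genotypes were Slc27a2, Acsl1, Acsm3, Acadm, Acads, Hadh, Echs1, Eci1, Ehhadh, Etfdh, Acat1 and Oxct1 (15.4% of all tested probes were called lower in both). Acadl was called higher in both (14.7% of all probes were). Acsl5, Hadha and Hadhb were called lower and Eci2 and Pex11a higher in Flox alone, and Mlycd, Ivd, Decr1, Ech1, Hsd17b4 and Bdh1 were called lower in GR iKO alone. None of these 11 differed between the genotypes by the test of the difference itself, given below. The remaining 9 genes were called in neither genotype. The arrays of the 2 treatments did not overlap for 20 of the 33 genes in Flox (57.4% of all probes) and for 18 in GR iKO (46.3%). Over the 3 slides that held both treatments, 25 of the 33 genes differed in the same direction on each slide in Flox (69% of all probes did) and 23 in GR iKO (62.1%). Among the called genes, Slc27a2 in Flox was the exception. With the slide as a block, 12 of the 33 were called lower and 2 higher in Flox and 17 lower and 1 higher in GR iKO. Of all 29520 probes, 14389 were then called in Flox (6783 higher) and 11781 in GR iKO (5840 higher). The Flox calls of Acsl5, Hadha, Hadhb and Pex11a (adjusted p = 0.0581, 0.0611, 0.0509 and 0.058) and the GR iKO call of Ech1 (adjusted p = 0.0627) were lost with that block.

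Both totals rest on the scaling. Scaled to the spike-in transcripts, the median over all probes moved to -2.45 in Flox and -0.98 in GR iKO. The 33 genes then had medians of -2.77 and -1.50. Of them, 33 were called lower and 0 higher in Flox, and 24 lower and 0 higher in GR iKO. Of all 29520 probes, 25379 were then called in Flox (213 of them higher) and 13253 in GR iKO (736 of them higher). Scaling to the mean of the 10 epithelium markers was chosen after seeing the data. With it, 9 of the 33 were called lower and 3 higher in Flox and 22 lower and 1 higher in GR iKO. Of all probes, 10121 were then called in Flox (6284 higher) and 9700 in GR iKO (3210 higher). Without Flox DSS replicate 1, 9 of the 33 were called lower and 1 higher in Flox, and 9190 of all probes were called there (4620 higher). In the fit used above, 13949 probes were called in Flox (6437 higher) and 11490 in GR iKO (5647 higher).

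**Figure D2:**
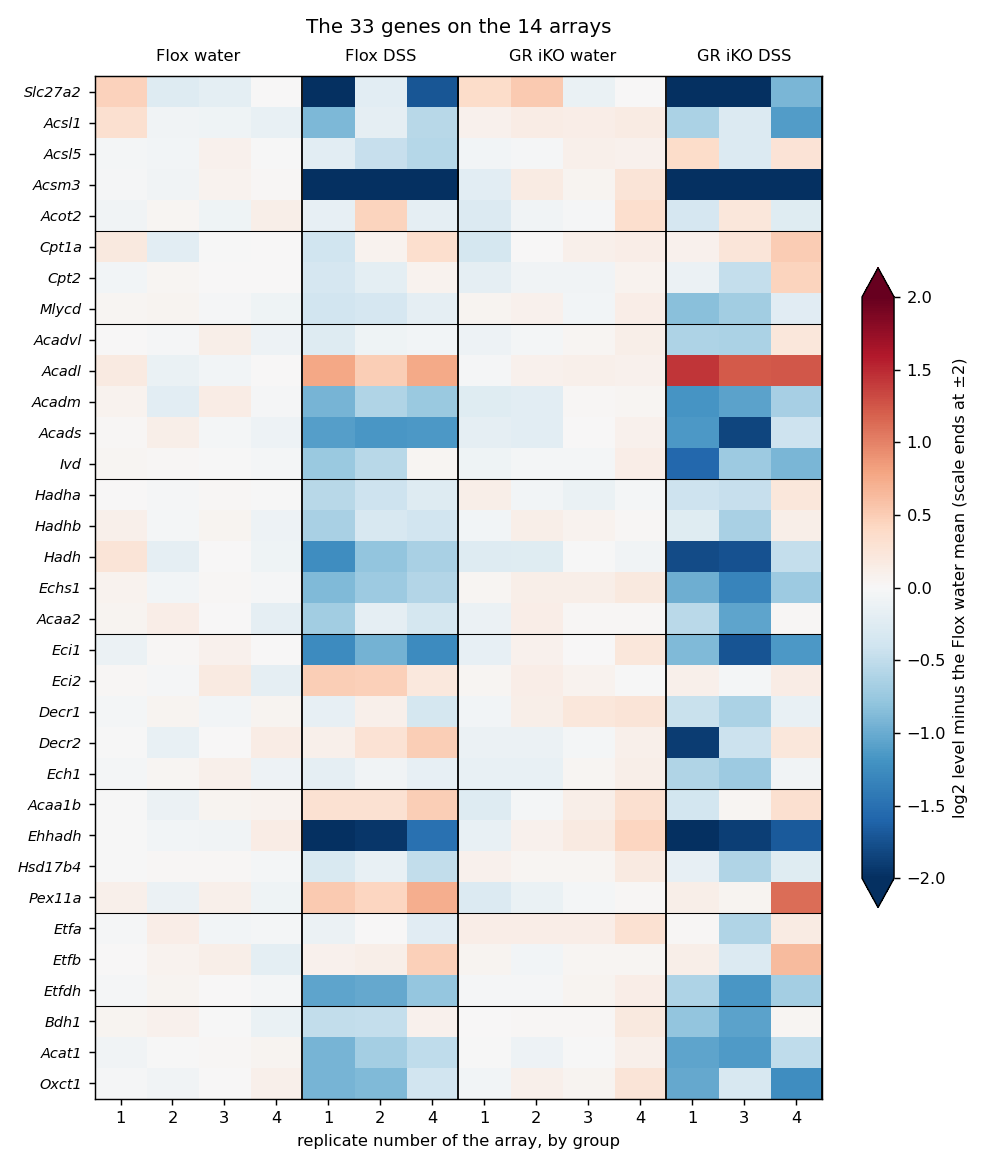
Log2 level of the 33 genes (grouped by role between horizontal lines) on each of the 14 arrays, minus the mean of the 4 Flox water arrays, on a colour scale that ends at 2 in each direction. Acsm3 and Ehhadh are blue, and so below the Flox water mean, on all 6 DSS arrays.

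Promoter windows matched 29 of the 33 genes (not Acaa2, Decr1, Hsd17b4 or Acat1), by symbol, in the RefSeq table (build GRCm38.p6, 250 bases before to 50 after the start). The 5 windows shown are those of Acsm3, of Acadl and of 3 of the genes lower in both genotypes that hold a searched motif (Slc27a2, Echs1 and Hadh). Acsm3 had the largest fall, and Acadl was the one higher in both. Acadm, also lower in both, holds AGGTCA too, and its window is not shown. Capitals mark AGGTCA or its reverse complement TGACCT, the hexamer of nuclear receptors such as PPAR alpha, and TGTTCT or its reverse complement AGAACA, the hexamer of the glucocorticoid receptor.
Acsm3, chr7:119760673-119760972, plus strand: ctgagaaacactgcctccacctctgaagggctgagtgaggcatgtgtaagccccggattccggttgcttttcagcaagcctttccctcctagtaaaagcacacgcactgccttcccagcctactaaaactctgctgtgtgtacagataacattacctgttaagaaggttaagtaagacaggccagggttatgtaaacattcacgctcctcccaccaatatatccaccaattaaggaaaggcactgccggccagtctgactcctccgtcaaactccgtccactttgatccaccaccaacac
Slc27a2, chr2:126552774-126553073, plus strand: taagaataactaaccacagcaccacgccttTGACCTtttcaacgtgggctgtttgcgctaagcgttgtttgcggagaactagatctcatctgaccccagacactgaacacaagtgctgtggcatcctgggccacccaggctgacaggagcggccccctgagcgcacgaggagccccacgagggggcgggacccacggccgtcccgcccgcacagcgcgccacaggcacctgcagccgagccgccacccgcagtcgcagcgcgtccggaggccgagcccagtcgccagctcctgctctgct
Echs1, chr7:140116372-140116671, minus strand: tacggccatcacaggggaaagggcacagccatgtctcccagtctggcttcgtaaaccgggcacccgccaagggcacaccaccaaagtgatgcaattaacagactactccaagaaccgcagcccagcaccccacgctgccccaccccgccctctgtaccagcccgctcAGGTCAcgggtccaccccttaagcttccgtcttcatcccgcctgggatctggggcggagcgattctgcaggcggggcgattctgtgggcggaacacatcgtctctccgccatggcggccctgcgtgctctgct
Hadh, chr3:131272052-131272351, minus strand: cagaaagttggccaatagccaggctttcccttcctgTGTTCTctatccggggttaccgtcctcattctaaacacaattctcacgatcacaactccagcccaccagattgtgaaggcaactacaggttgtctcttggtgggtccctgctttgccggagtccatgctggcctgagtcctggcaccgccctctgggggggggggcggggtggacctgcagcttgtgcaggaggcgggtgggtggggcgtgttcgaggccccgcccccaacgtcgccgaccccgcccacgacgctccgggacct
Acadl, chr1:66863260-66863559, minus strand: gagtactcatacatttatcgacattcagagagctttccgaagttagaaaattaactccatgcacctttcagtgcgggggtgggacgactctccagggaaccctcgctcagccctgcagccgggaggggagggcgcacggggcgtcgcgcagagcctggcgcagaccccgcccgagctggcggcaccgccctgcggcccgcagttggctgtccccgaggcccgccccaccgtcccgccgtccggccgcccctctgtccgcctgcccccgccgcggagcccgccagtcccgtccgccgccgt
On both strands, AGGTCA stood in the windows of 5 of the 29 genes (Acadm, Acadvl, Cpt1a, Echs1 and Slc27a2), or 17.2%, against 18.1% of all 27025 genes in the table. TGTTCT stood in those of 3 (Acsl5, Hadh and Mlycd), or 10.3%, against 21.3% of all genes. Longer motifs stood in none of the 29: AGGTCA followed after 1 base by another AGGTCA (0.0481% of all genes), CAAAGTCCA of HNF4 (0.555%), TCAAGGTCA of the estrogen-related receptors, which contains AGGTCA (0.466%), and AGAACA followed after 3 bases by TGTTCT (0.0111%). The shares of the hexamers in these genes were thus no higher than those in all genes.

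Activation joins the acid to coenzyme A. Acsm3, a mitochondrial synthetase for medium-chain acids, stood at 4.18, 4.13, 4.27 and 4.23 on the Flox water arrays and at -0.80, -0.04 and 1.98 on the Flox DSS arrays. It stood at 3.99, 4.37, 4.25 and 4.46 on the GR iKO water arrays and at 0.69, 0.94 and 1.30 on the GR iKO DSS arrays. The DSS arrays lay far below the water arrays in both genotypes, and the Flox DSS arrays were the most scattered. The fall was 14.2-fold in Flox (log2 -3.82 ± 0.41, SE, adjusted p = 2.22e-05) and 9.78-fold in GR iKO (log2 -3.29 ± 0.41, adjusted p = 9.84e-05). Slc27a2, which activates and takes up very long chains, stood at -1.15, -1.87, -1.81 and -1.61 on Flox water and at -4.04, -1.82 and -3.32 on Flox DSS. On GR iKO it stood at -1.25, -1.09, -1.74 and -1.60 on water and at -4.69, -4.49 and -2.52 on DSS. Replicate 2 of Flox DSS lay among the water arrays, and on its slide the difference was 0.05, against -2.89 and -1.71 on the other slides. The Flox change was -1.45 ± 0.51 (adjusted p = 0.0324) and the GR iKO change -2.48 ± 0.51 (adjusted p = 0.00237). The Flox call was lost without Flox DSS replicate 1 (-0.96, adjusted p = 0.231) or replicate 4 (-1.32, adjusted p = 0.105) and without Flox water replicate 1 (-1.29, adjusted p = 0.0564).

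Acsl1, a long-chain acyl-CoA synthetase, was lower by -0.55 ± 0.21 in Flox and -0.81 ± 0.21 in GR iKO (adjusted p = 0.0465 and 0.00893). The Flox call sat at the threshold and was lost with 10 of the 14 arrays when each was left out in turn. The GR iKO call was lost without GR iKO DSS replicate 4 (-0.58, adjusted p = 0.0771). The other probes of Acsl1 gave -0.45 and -0.13 in Flox, neither of them called. Acsl5, another long-chain synthetase, stood at 2.50, 2.49, 2.63 and 2.53 on Flox water and at 2.32, 2.07 and 1.97 on Flox DSS, and at 2.48, 2.51, 2.64 and 2.62 on GR iKO water and 2.91, 2.26 and 2.81 on GR iKO DSS. All 3 Flox DSS arrays lay below the Flox water arrays, while the GR iKO DSS arrays lay on either side of theirs. The Flox change was -0.42 ± 0.15 (adjusted p = 0.0325) and that of GR iKO 0.10 ± 0.15 (adjusted p = 0.626). The Flox call was lost without Flox DSS replicate 2 or 4 or Flox water replicate 3. Acot2, a mitochondrial thioesterase that releases the acid again, gave 0.04 ± 0.22 and -0.11 ± 0.22, with neither called. It has a near-identical neighbour, Acot1, whose probe gave -1.11 ± 0.27 for Flox (adjusted p = 0.00459) and -0.37 ± 0.27 for GR iKO, and whether the probes share signal was not tested.

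The genes of the carnitine shuttle were not called in Flox. Cpt1a, the outer-membrane carnitine palmitoyltransferase that sets the rate of entry, gave 0.00 ± 0.22 in Flox and 0.31 ± 0.22 in GR iKO (adjusted p = 1 and 0.285). The other probe of Cpt1a gave -0.65 ± 0.23 (adjusted p = 0.035) and -0.24 ± 0.23, so its probes disagreed in Flox. Cpt2, the inner-membrane partner, gave -0.15 ± 0.17 and 0.01 ± 0.17. Mlycd, which removes malonyl-CoA, the inhibitor of Cpt1a, gave -0.30 ± 0.14 in Flox (adjusted p = 0.0848) and was lower by -0.65 ± 0.14 in GR iKO (adjusted p = 0.00286).

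The acyl-CoA dehydrogenases, which open each turn and differ in the chain length they take, did not move together. Acads, for short chains such as butyrate, stood at 2.64, 2.73, 2.57 and 2.52 on Flox water and at 1.52, 1.45 and 1.46 on Flox DSS. It stood at 2.44, 2.40, 2.62 and 2.70 on GR iKO water and at 1.46, 0.78 and 2.20 on GR iKO DSS, so every DSS array lay below every water array, closely grouped in Flox and spread out in GR iKO. Its fall was 2.20-fold in Flox and 2.09-fold in GR iKO (log2 -1.14 ± 0.22 and -1.06 ± 0.22, adjusted p = 0.00139 and 0.00301). Acadm, for medium chains, fell 1.70-fold and 1.83-fold (adjusted p = 0.00321 and 0.00196). Acadl, for long chains, went the other way: it stood at 1.84, 1.53, 1.61 and 1.68 on Flox water and 2.44, 2.15 and 2.42 on Flox DSS, and at 1.64, 1.75, 1.76 and 1.75 on GR iKO water and 3.10, 2.89 and 2.91 on GR iKO DSS. The groups did not overlap, and all GR iKO DSS arrays lay above all Flox DSS arrays. The rise was 1.59-fold in Flox (log2 0.67 ± 0.13, adjusted p = 0.00133) and 2.37-fold in GR iKO (log2 1.24 ± 0.13, adjusted p = 3.63e-05). Scaled to the spike-in transcripts, where the median of all probes was -2.45, the Flox change of Acadl was -1.69, and in GR iKO its call was lost. Acadvl, for very long chains, gave -0.13 ± 0.17 and -0.35 ± 0.17 and was called in neither. Ivd, which acts on isovaleryl-CoA from leucine and not on fatty acids, gave -0.41 ± 0.19 in Flox (adjusted p = 0.0896) and was 2.09-fold lower in GR iKO (log2 -1.06 ± 0.19, adjusted p = 0.001). The other probe of Ivd was called lower in both (-0.57 ± 0.20 and -1.13 ± 0.20, adjusted p = 0.0359 and 0.00114).

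The later steps of each turn are run in mitochondria by the hydratase Echs1, the dehydrogenase Hadh, the thiolase Acaa2 and, for long chains, by the trifunctional protein of Hadha and Hadhb. All 5 were below 0 in both genotypes. Echs1 stood at 4.31, 4.18, 4.26 and 4.21 on Flox water and at 3.35, 3.52 and 3.65 on Flox DSS, and at 4.28, 4.35, 4.36 and 4.43 on GR iKO water and at 3.26, 2.92 and 3.52 on GR iKO DSS. Its changes, -0.73 ± 0.13 and -1.12 ± 0.13, were called in both (adjusted p = 0.000818 and 7.39e-05). Hadh stood at 4.50, 4.07, 4.25 and 4.16 on Flox water and at 3.01, 3.46 and 3.60 on Flox DSS, and at 3.98, 4.00, 4.23 and 4.17 on GR iKO water and at 2.45, 2.50 and 3.77 on GR iKO DSS. No DSS array overlapped the water arrays, and replicate 4 of GR iKO DSS lay nearest to them. Hadh fell 1.85-fold and 2.28-fold (log2 -0.89 ± 0.26 and -1.19 ± 0.26, adjusted p = 0.0136 and 0.00356), and the Flox call was lost without Flox DSS replicate 1 (-0.72, adjusted p = 0.105). Hadha and Hadhb were called lower in Flox (-0.41 ± 0.15 and -0.45 ± 0.16, adjusted p = 0.0433 and 0.03) and gave -0.19 ± 0.15 and -0.30 ± 0.16 in GR iKO, where neither was called. The Flox call was lost with 8 of the 14 arrays left out in turn for Hadha and with 5 for Hadhb, among them Flox DSS replicates 1 and 2 for both. Acaa2 gave -0.41 ± 0.20 and -0.54 ± 0.20 (adjusted p = 0.116 and 0.053).

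Unsaturated chains need isomerases and reductases. Eci1, the mitochondrial enoyl-CoA isomerase, stood at 3.27, 3.40, 3.46 and 3.39 on Flox water and at 2.12, 2.44 and 2.12 on Flox DSS, and at 3.21, 3.46, 3.38 and 3.60 on GR iKO water and at 2.50, 1.65 and 2.23 on GR iKO DSS. The groups did not overlap, and it fell 2.23-fold and 2.44-fold (log2 -1.15 ± 0.18 and -1.29 ± 0.18, adjusted p = 0.000318 and 0.000242). Eci2, the isomerase of peroxisomes and mitochondria, was higher in Flox (0.39 ± 0.13, adjusted p = 0.0299) and gave 0.01 ± 0.13 in GR iKO; the Flox call was lost without Flox DSS replicate 1 or 2 or Flox water replicate 2, and with the spike-ins the change was -1.97. Decr1, the mitochondrial dienoyl-CoA reductase, and Ech1, the dienoyl-CoA isomerase, each gave -0.14 in Flox and were lower in GR iKO (-0.54 ± 0.15 and -0.44 ± 0.16, adjusted p = 0.0137 and 0.0432). The call of Decr1 was lost without GR iKO DSS replicate 3 (-0.42, adjusted p = 0.0712), and that of Ech1 with 8 of the 14 arrays left out in turn. Decr2, the peroxisomal reductase, gave 0.29 ± 0.31 and -0.66 ± 0.31; its GR iKO DSS arrays read -1.05, 0.42 and 1.08, the widest spread among these genes after Slc27a2.

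In peroxisomes, Ehhadh, the bifunctional enzyme that hydrates and then dehydrogenates, stood at 0.50, 0.45, 0.43 and 0.65 on Flox water and at -1.88, -1.44 and -0.98 on Flox DSS. It stood at 0.36, 0.60, 0.69 and 0.94 on GR iKO water and at -1.93, -1.38 and -1.17 on GR iKO DSS. All 6 DSS arrays lay below 0 and all 8 water arrays above it. The fall was 3.84-fold in Flox (log2 -1.94 ± 0.23, adjusted p = 4.69e-05) and 4.42-fold in GR iKO (log2 -2.14 ± 0.23, adjusted p = 4.2e-05). Hsd17b4, the other bifunctional enzyme, gave smaller values, -0.31 ± 0.12 for Flox (adjusted p = 0.0524) and -0.42 ± 0.12 for GR iKO (adjusted p = 0.0159), a call lost without GR iKO DSS replicate 3 (-0.29, adjusted p = 0.0927). Acaa1b, a peroxisomal thiolase with a near-identical copy, Acaa1a, gave 0.37 ± 0.20 and -0.03 ± 0.20, with neither called. The 3 probes of Acaa1a gave 0.00, -0.25 and -0.20 in Flox and -0.20, -0.55 and -0.39 in GR iKO, of which -0.55 was called (adjusted p = 0.0267). Whether probes of Acaa1b and Acaa1a, or of Eci2 and its neighbour Eci3, share signal was not tested. Pex11a, which acts in the division of peroxisomes, was higher in Flox (0.56 ± 0.21, adjusted p = 0.0415) and gave 0.53 ± 0.21 in GR iKO (adjusted p = 0.06). The Flox call of Pex11a was lost with 7 of the 14 arrays left out in turn, among them each of the 3 Flox DSS arrays, and with the spike-ins the change was -1.80.

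Electrons pass from the dehydrogenases to the flavoprotein subunits Etfa and Etfb and on to the respiratory chain through Etfdh. Etfdh stood at 3.71, 3.80, 3.75 and 3.70 on Flox water and at 2.68, 2.72 and 2.97 on Flox DSS, and at 3.72, 3.71, 3.79 and 3.87 on GR iKO water and at 3.13, 2.58 and 3.06 on GR iKO DSS. The arrays of the treatments were well apart, and it fell 1.93-fold and 1.80-fold (log2 -0.95 ± 0.13 and -0.85 ± 0.13, adjusted p = 0.000139 and 0.000455). Etfa (-0.12 ± 0.16 and -0.32 ± 0.16) and Etfb (0.23 ± 0.18 and 0.14 ± 0.18) were not called.

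Ketone bodies are made from and returned to acetyl-CoA. Oxct1, which starts their use, stood at 5.76, 5.71, 5.79 and 5.89 on Flox water and at 4.86, 4.91 and 5.41 on Flox DSS, and at 5.74, 5.89, 5.84 and 6.05 on GR iKO water and at 4.76, 5.47 and 4.55 on GR iKO DSS. No DSS array reached the lowest water array. Oxct1 fell 1.65-fold and 1.94-fold (log2 -0.72 ± 0.19 and -0.95 ± 0.19, adjusted p = 0.00818 and 0.00214), and the Flox call was lost without Flox DSS replicate 1 (-0.62, adjusted p = 0.0673) or 2 (-0.65, adjusted p = 0.057). The other 2 probes of Oxct1 gave -1.14 and -1.21 in Flox and -1.16 and -1.36 in GR iKO, all called. Acat1, the mitochondrial thiolase of both directions, fell 1.63-fold and 1.87-fold (adjusted p = 0.00213 and 0.000634). Bdh1, which interconverts the ketone bodies acetoacetate and beta-hydroxybutyrate, gave -0.29 ± 0.21 for Flox (adjusted p = 0.268) and -0.67 ± 0.21 for GR iKO (adjusted p = 0.0227). The other probe of Bdh1 was called lower in both (-1.63 ± 0.17 and -1.36 ± 0.17, adjusted p = 1.88e-05 and 0.000105), so the Flox call depends on the probe. The GR iKO call was lost without GR iKO DSS replicate 1 (-0.58, adjusted p = 0.0933) or 3 (-0.43, adjusted p = 0.149).

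**Figure D3:**
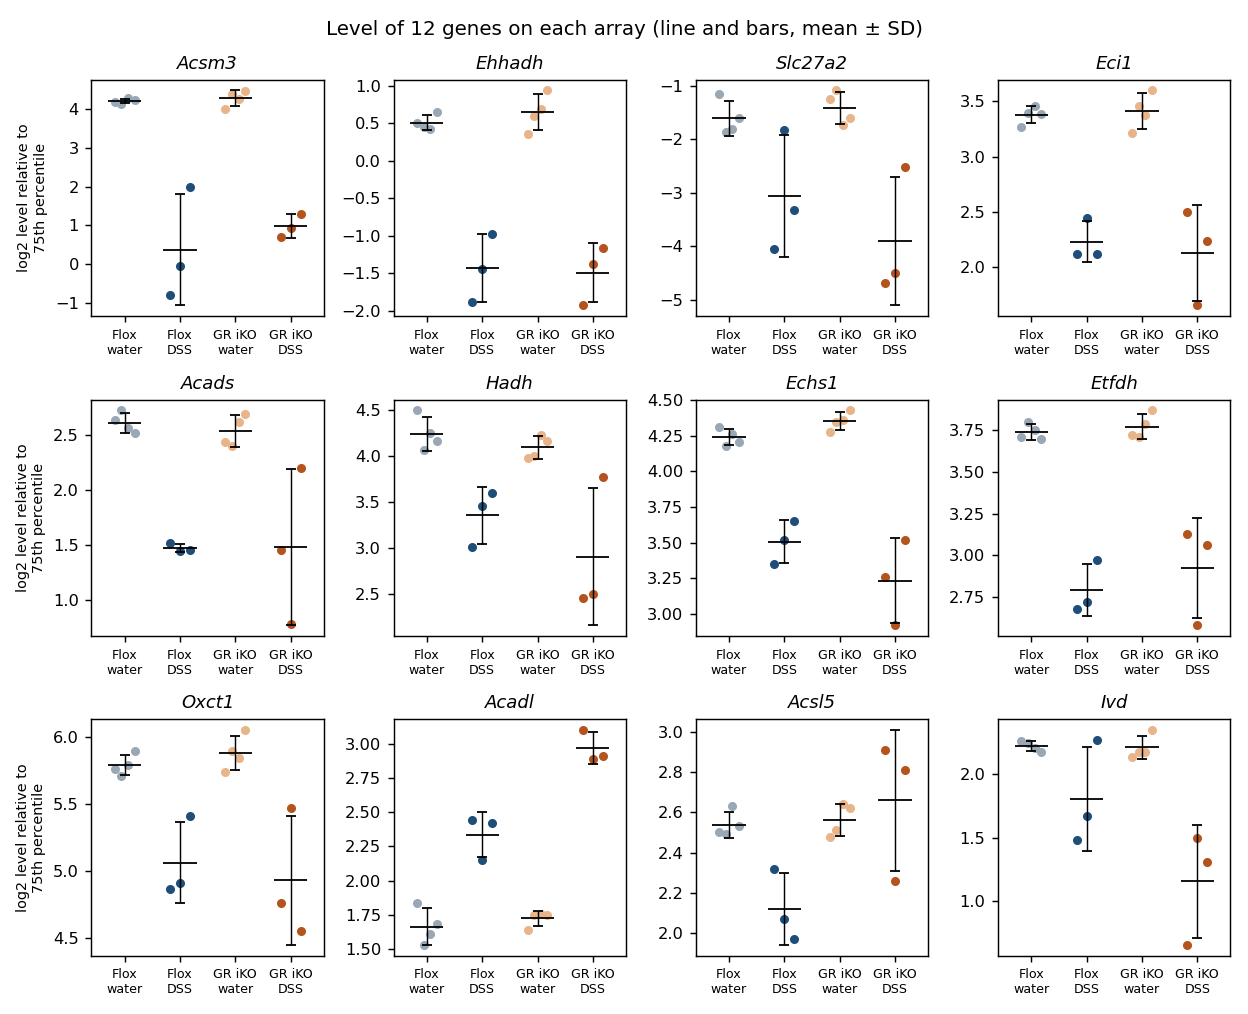
Log2 level, set against each array's 75th percentile, for 12 of the genes, 1 point an array, with the mean (line) and SD (bars) of each group of 3 or 4. In the first 9 panels the DSS arrays lie below the water arrays, except replicate 2 of Flox DSS for Slc27a2. Acadl lies above them, Acsl5 lies below them in Flox only, and for Ivd 1 of the 3 Flox DSS arrays lies at the water level.

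In whole colon, fewer cells of a type and less RNA per cell cannot be told apart. The mean log2 level of the 10 epithelium markers ran from 5.90 to 6.17 on Flox water, 5.66 to 6.13 on Flox DSS, 6.06 to 6.21 on GR iKO water and 6.04 to 6.65 on GR iKO DSS, so the ranges on DSS and water overlapped in both genotypes. Its markers went both ways: 3 were called lower and 2 higher in Flox, and 0 lower and 2 higher in GR iKO. That of the 10 absorptive colonocyte markers ran from 4.30 to 4.46 and 3.25 to 4.11 in Flox, and from 4.14 to 4.56 and 2.98 to 4.06 in GR iKO, lower on DSS with no overlap. Of those 10 markers, 4 were called lower and 0 higher in each genotype. All 6 fibroblast markers were called higher in both genotypes. So were 6 of 8 neutrophil markers in Flox and 8 of 8 in GR iKO, and 7 of 8 smooth muscle markers in Flox against 1 in GR iKO. Adipocytes also hold these enzymes: of 7 tested adipocyte markers 2 were called higher in Flox and 3 lower in GR iKO, with mean levels of -0.39 and -0.70 on GR iKO DSS replicates 1 and 4 against 2.64 on replicate 3. Of the goblet cell markers 3 of 7 were called lower in Flox and 0 in GR iKO, of the crypt stem cell markers 3 of 4 in each, and of the lymphocyte markers 3 of 8 and 1 of 8. Macrophage markers were called higher for 3 of 7 and 5 of 7, and those of skeletal and heart muscle were called lower for 1 of 6 and 2 of 6 and higher for 2 and 0. The neutrophil markers Cxcr2 and Mmp8 had no water array well above background. Over all probes, 25.4% were called lower and 21.8% higher in Flox, and 19.8% and 19.1% in GR iKO. The part of these cell types in the falls was not tested.

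Of 35 other tested enzymes of oxidation and ketogenesis, 13 were called lower and 10 higher in Flox and 11 lower and 8 higher in GR iKO. The shares were 37.1% lower and 28.6% higher in Flox and 31.4% and 22.9% in GR iKO. Over all probes they were 25.4% and 21.8% in Flox and 19.8% and 19.1% in GR iKO. Acss2, which makes acetyl-CoA from acetate, fell 6.63-fold and 8.80-fold (log2 -2.73 ± 0.24 and -3.14 ± 0.24, adjusted p = 7.64e-06 and 5.33e-06). Acacb, which makes the malonyl-CoA that holds back Cpt1a, rose 4.54-fold and 4.44-fold (adjusted p = 6.87e-05 and 0.000125), and with the spike-in scaling its Flox change was -0.18. Acot12, an acetyl-CoA thioesterase, was above background on 2 of 3 DSS arrays in each genotype and on no water array. With dim water readings raised to the lowest level well above background, it was at least 2.40-fold higher in Flox and at least 2.15-fold higher in GR iKO. The limma fit, run on the levels as read, called it in both (adjusted p = 0.00118 and 0.00144). The Flox call of Acot12 was lost with the spike-in scaling (0.55, adjusted p = 0.471). The carnitine carrier Slc25a20 gave -0.44 ± 0.25 and 0.59 ± 0.25, with neither called, though with the slide as a block both were (-0.52 and 0.57, adjusted p = 0.0424 and 0.0356).

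The genes that bring acids into the cell were called lower in 1 of 14 and higher in 5 in Flox, and lower in 2 and higher in 3 in GR iKO. The shares were 7.14% lower and 35.7% higher in Flox and 14.3% and 21.4% in GR iKO. Over all probes they were 25.4% and 21.8% in Flox and 19.8% and 19.1% in GR iKO. Slc5a8, a sodium-coupled carrier of butyrate and other short chains, fell 5.11-fold in Flox (log2 -2.35 ± 0.29, adjusted p = 9.19e-05) and 2.71-fold in GR iKO (log2 -1.44 ± 0.35, adjusted p = 0.00737), where the fit had 2 DSS arrays because the spot on replicate 3 was marked as an outlier by the scanner software. The GR iKO call of Slc5a8 was lost without GR iKO DSS replicate 4. Slc16a1, the proton-coupled carrier of butyrate and lactate, gave -0.24 ± 0.30 and -0.17 ± 0.30. Fabp1, a fatty acid binding protein and PPAR target, rose 27.0-fold in Flox and 7.48-fold in GR iKO (log2 4.75 ± 0.70 and 2.90 ± 0.70, adjusted p = 0.000192 and 0.00617). The GR iKO call of Fabp1 was lost without GR iKO DSS replicate 4. Slc16a3, the lactate exporter, rose 3.80-fold and 6.73-fold (adjusted p = 0.00378 and 0.000578), and with the spike-in scaling its Flox change was -0.44. Slc27a5, a bile acid and very long chain acyl-CoA synthetase, was above background on no water array. With dim water readings raised to the lowest level well above background, it was at least 3.24-fold and at least 1.68-fold higher on DSS. The limma fit, run on the levels as read, called it in both genotypes (adjusted p = 0.000703 and 0.00561). The GR iKO call of Slc27a5 was lost without GR iKO DSS replicate 4, and both calls were lost with the spike-in scaling.

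Of 22 transcriptional regulators of the pathway, 7 were called lower in each genotype, 4 higher in Flox and 3 higher in GR iKO. The shares were 31.8% lower and 18.2% higher in Flox and 31.8% and 13.6% in GR iKO. Over all probes they were 25.4% and 21.8% in Flox and 19.8% and 19.1% in GR iKO. Ppargc1a, a coactivator of mitochondrial genes, fell 5.78-fold and 9.40-fold (log2 -2.53 ± 0.49 and -3.23 ± 0.49, adjusted p = 0.00115 and 0.000352). Ppara, the receptor that drives many of the 33 genes in liver, gave -0.76 ± 0.35 in Flox (adjusted p = 0.0928) and fell by 1.72 ± 0.35 on the log2 scale in GR iKO (adjusted p = 0.00237), and Pparg gave -0.06 ± 0.23 and 0.02 ± 0.23. Creb3l3, a factor of liver and gut lipid genes, rose 4.88-fold and 4.00-fold, and Rxrg, a retinoid X receptor, rose 4.06-fold and 2.00-fold. With the spike-in scaling the Flox changes of Creb3l3 and Rxrg were -0.07 and -0.34, and their GR iKO calls were lost (1.04 and 0.05, adjusted p = 0.0789 and 0.928). Scaling to the epithelium markers also ended the GR iKO call of Rxrg (0.79, adjusted p = 0.0594). A further list held 15 tested PPAR targets outside the 33 genes, 5 of which also stand in the lists above. Of these 15, 2 were called lower and 8 higher in Flox and 1 lower and 6 higher in GR iKO. Angptl4, an inhibitor of lipoprotein lipase, rose 18.8-fold and 29.8-fold (log2 4.24 ± 0.71 and 4.90 ± 0.71, adjusted p = 0.000466 and 0.000279). Pdk4, which shuts pyruvate out of the citric acid cycle, rose 3.80-fold and 4.39-fold (adjusted p = 6.89e-06 and 5.55e-06), and Vnn1, a pantetheinase, 4.61-fold and 5.82-fold. With the spike-in scaling the Flox changes of Pdk4 and Vnn1 were -0.44 and -0.16. Among the 33 genes 3 and 1 were called higher, or 9.09% and 3.03%. The shares called higher were 53.3% and 40% of the listed PPAR targets and 21.8% and 19.1% of all probes. That list left out any PPAR targets among the 33 genes, so it does not stand for PPAR targets as a class.

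The citric acid cycle, which takes up the acetyl-CoA, had 12 of 16 genes called lower in Flox and 13 in GR iKO, with 0 higher. The shares called lower were 75% and 81.2%, against 25.4% and 19.8% of all probes. The median log2 difference of the 16 genes was -0.75 in Flox and -0.59 in GR iKO. Idh3a fell 3.48-fold and 3.12-fold, and the succinyl-CoA ligase subunits Suclg1 (2.45-fold and 2.66-fold) and Suclg2 (2.52-fold and 2.39-fold) fell as well. In glycolysis, 0 of 18 genes were called lower, and 4 in Flox and 7 in GR iKO were called higher, or 22.2% and 38.9% (21.8% and 19.1% of all probes). Pfkfb3, which makes the activator of phosphofructokinase, rose 10.5-fold and 16.7-fold, and the hexokinase Hk3 5.21-fold and 14.8-fold. With the spike-in scaling the Flox call of Hk3 was lost (0.02, adjusted p = 0.976).

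**Figure D4:**
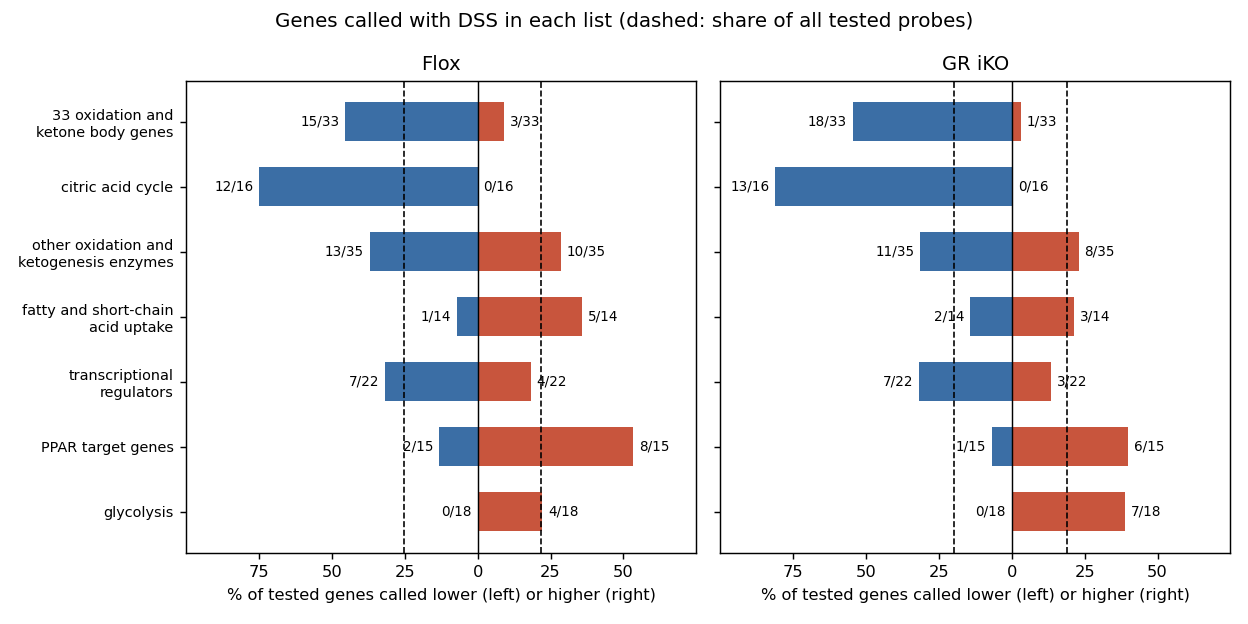
Percent of tested genes called lower (blue, to the left) and higher (red, to the right) with DSS in each list, in Flox and GR iKO, with the numbers of genes at the bar ends. Dashed lines give the percent of all tested probes called lower or higher. The 33 genes, the citric acid cycle and the transcriptional regulators pass the dashed line on the left and stay short of it on the right in both genotypes.

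Between the genotypes on water, none of the 33 genes was called (limma; 0.0237% of all tested probes were), and 0 had an unadjusted p under 0.05, against 3.32% of all probes. Their differences, GR iKO minus Flox, ran from -0.15 to 0.19 with a median of 0.03. The smallest p-values were those of Etfa, Echs1 and Decr1. Etfa stood at 3.13, 3.28, 3.09 and 3.11 in Flox and at 3.29, 3.29, 3.29 and 3.46 in GR iKO, a difference of 0.18 ± 0.09 (adjusted p = 1). Decr1 stood at -1.88, -1.79, -1.90 and -1.79 in Flox and at -1.90, -1.72, -1.62 and -1.59 in GR iKO, with overlap. Echs1 and Decr1 differed by 0.12 ± 0.08 and 0.13 ± 0.09 (adjusted p = 1 for both). The GR iKO arrays of Etfa lay just above those of Flox, without overlap, as did those of Hsd17b4 (2 of the 33 genes, against 2.26% of all probes).

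On DSS, again none of the 33 was called (0.0203% of all probes were), and 4 had an unadjusted p under 0.05, against 17.8% of all probes. The differences had a median of -0.14, with 24 of 33 below 0, against a median of 0.03 over all probes. Acadl was higher in GR iKO on every array, by 0.63 ± 0.17 (adjusted p = 0.0999). Acsl5 was higher by 0.54 ± 0.19 (adjusted p = 0.166), with replicate 3 of GR iKO DSS inside the Flox range. Ivd read 1.48, 1.67 and 2.27 in Flox and 0.65, 1.50 and 1.31 in GR iKO, a difference of -0.66 ± 0.24 (adjusted p = 0.187), with overlap. Of all 33 genes, Acadl and Eci2 had Flox and GR iKO DSS arrays that did not overlap (22.8% of all probes). With 1 spread shared by all arrays in place of a larger one on DSS, Acadl and Acsl5 were called (adjusted p = 0.0103 and 0.0435). With a quality weight for each array 3 genes were called, Acadl (adjusted p = 0.0195) and Acsl5 (adjusted p = 0.042) among them. Of all 29520 probes, 3903 were called with the shared spread and 4453 with the quality weights.

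The DSS change itself did not pass the test of a difference between the genotypes for any of the 33 genes, nor for any tested probe (0%; unadjusted p under 0.05 for 3 of the 33 and for 14.9% of all probes). This comparison uses the same arrays as those above. Its smallest p-values belonged to the same genes: Acadl (0.57 ± 0.19, adjusted p = 0.201), Acsl5 (0.52 ± 0.21, adjusted p = 0.276) and Ivd (-0.65 ± 0.27, adjusted p = 0.286), as the change in GR iKO minus that in Flox. With 3 arrays a group and the spread seen on DSS, differences of this size cannot be told from the spread between mice, and a p above the threshold does not show that the genotypes respond alike. Scaled to the spike-in transcripts, 7 of the 33 were called for this difference, all more positive in GR iKO. Of all 29520 probes, 8813 were then called, all of them more positive in GR iKO, and the median of all probes was 1.43.

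**Figure D5:**
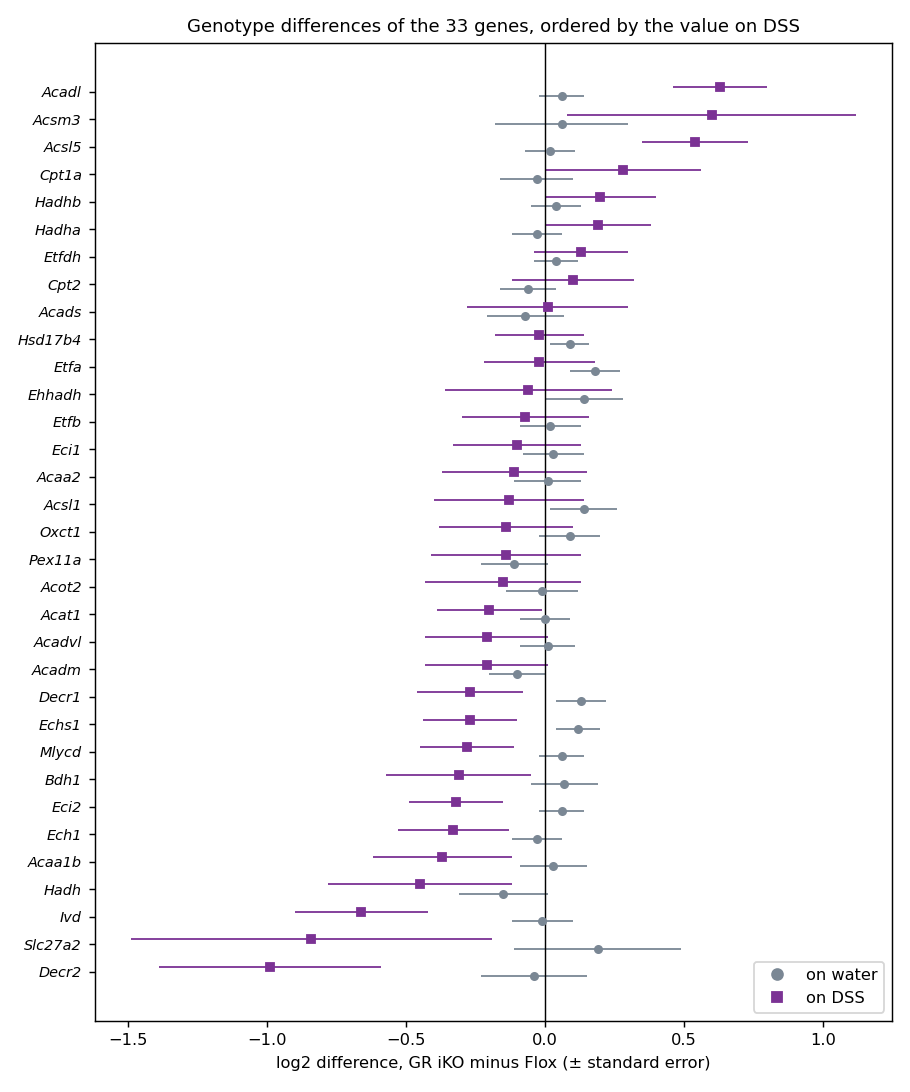
Log2 difference, GR iKO minus Flox, with its standard error, for each of the 33 genes on water (grey circles) and on DSS (purple squares), ordered by the value on DSS. On water all values lie between -0.15 and 0.19. On DSS they spread from -0.99 (Decr2) to 0.63 (Acadl), and none of them passed the threshold.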

How the data were processed

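RNA from whole colon of 14 mice was labelled with Cy3 and hybridised to 1-colour Agilent mouse arrays, and the authors obtained the intensity of each spot with Feature Extraction of Agilent (12.0.0.7 per the file headers). The deposited scanner files hold processed intensity, background-subtracted by that software, and the deposited value table holds log2 values, made by the authors with Partek 6.6 per the submitters' processing notes and with the same median on every array. Here log2 processed intensity minus the 75th percentile of the array was used. Control spots (1639 of 45018) and spots marked as outliers were left out, and spots of a probe were averaged. Tested probes were those well above background on 3 arrays or more (29520 of 41174). Probes were named through RefSeq accessions (28223 of 29245 matched a single symbol). Groups came from the labels.

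A single limma fit held all groups (R 4.3.3, limma 3.58.1, and version 1.17.8 of data.table) in which the water and DSS arrays had weights of 1.69 and 0.50 for their different spread. Adjusted p-values are Benjamini-Hochberg values of this fit over all tested probes, "called" means under 0.05, and ± in a difference is the SE. The fit was also run on simulated data with known DSS changes, and the outcome is not given here. The simulated noise was normal and independent between probes and arrays. It held no slide or scaling effect, so that run cannot speak to those. The members, the lists of other pathway genes and of cell type markers, and the tests were chosen with earlier results of these data known. All 33 genes are named. Array values are given for the 10 with the largest mean DSS change among those called in both genotypes, those with opposite signs and a call, and the 3 with the smallest p in each genotype comparison. Of each other pathway list, the 3 largest changes called in both genotypes are named, and Slc25a20, Ppara, Ppargc1a, Pparg, Slc16a1, Slc5a8, Pdk4 and Angptl4 in any case. Some genes of the lists count in their totals but are not reported here by name. Other normalizations, background corrections, filters, probe summaries, spread models, blocks and left-out arrays were run as alternatives. The number of arrays limits the precision.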

Additional observations from a re-analysis of the deposited data

Results flagged for a closer look

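Within the water groups of 4 arrays, 5 of the 66 sets of levels had 1 array apart from the rest by Dixon's test, where chance gives about 1 in 20. Acsl1 read 2.50 on Flox water replicate 1 against 2.04 to 2.11 on the others. In GR iKO, Acadl read 1.64 on water replicate 1 against 1.75 to 1.76, and Etfb read 5.71 on replicate 2 against 5.80 to 5.82. On replicate 4 of that group, Etfa read 3.46 against 3.29 on each of the others and Bdh1 read 4.84 against 4.65 to 4.67.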

How the results depend on the processing

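Of 27 alternatives, the scaling to spike-in transcripts ended 1 and turned 3 of the 37 calls of the 33 genes, while leaving out Flox DSS replicate 1 ended 9, leaving out replicate 2 ended 7 and scaling to the epithelium markers ended 6. The spike-in scaling gave 33 genes lower and 0 higher in Flox (median -2.77) and 0 higher in GR iKO (median -1.50), and the other pathway lists then had 93 lower and 3 higher in Flox and 56 lower and 10 higher in GR iKO, against 34 and 27 and 34 and 25. Of all 29520 probes, 25379 were then called in Flox and 13253 in GR iKO, against 13949 and 11490. For the DSS change between genotypes 7 genes were called higher with this scaling, as were 8813 of all probes. In Flox it turned the sign of Acot2 (-2.33), Acadl (-1.69), Eci2 (-1.97), Decr2 (-2.07), Acaa1b (-1.99), Pex11a (-1.80), Etfb (-2.13), Acacb (-0.18), Slc16a3 (-0.44), Creb3l3 (-0.07), Rxrg (-0.34), Vnn1 (-0.16) and Pdk4 (-0.44), and for Nr3c1 on DSS that of the genotype difference (0.40). The cause was not tested. A further 48 changes of sign, over 22 results, were of values called under neither setting.

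With quantile normalization, the deposited table or array quality weights, 2 genes were higher in GR iKO. Of all probes, 5157, 5117 and 6214 were then called higher there, against 5647 in the fit used above. Between genotypes on DSS, 2 genes were higher with 1 shared spread and 3 with quality weights. Of all 29520 probes, 3903 and 4453 were then called in either direction. Scaling to the epithelium markers gave 9 lower in Flox, and 22 lower in the pathway lists. With it, 10121 of all probes were called in Flox, against 13949 in the fit used above. Normexp correction, run on the median spot signal, and the epithelium scaling were chosen after seeing the data. Leaving out 1 array at a time, 9 to 16 genes were lower and 1 to 3 higher in Flox, 14 to 22 lower and 1 to 2 higher in GR iKO, and 0 to 1 higher between genotypes on DSS (1 without Flox DSS replicate 4 or GR iKO DSS replicate 3). Without each of those arrays, 826 and 732 of all probes were called between genotypes on DSS. The Flox medians ran from -0.44 to -0.26 and the GR iKO medians from -0.67 to -0.42. The pathway lists had 24 to 35 lower and 24 to 28 higher in Flox, and 28 to 36 lower and 19 to 27 higher in GR iKO.

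Water and DSS arrays of a genotype with the same number lay on the same slide. Of these 6 pairs 4 deviated together (correlations from 0.126 to 0.256) and matched best with their own number, and 2 did not (-0.011 and -0.019). Over all pairs, between genotypes too, correlations ran from -0.08 to 0.31, and no label says that a number marks a shared litter or day. With the replicate block, 12 genes were lower and 3 higher in Flox and 17 lower and 1 higher in GR iKO. Of all probes, 14262 were then called in Flox (6721 higher) and 11757 in GR iKO (5808 higher). In all 27 alternatives, 8 of the 18 called genes in Flox and 13 of the 19 in GR iKO kept their call, and Acadm, Acads, Acat1, Acsm3, Echs1, Eci1, Ehhadh and Etfdh did so in both.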
